A study of Homo sapiens with 6 samples.

Results

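Nucleotide exchange factors release ADP from HSP70 chaperones so that the chaperone can bind ATP and let go of its client protein. The set was taken by gene symbol and holds the BAG family and the other dedicated exchange factors: BAG1, BAG2, BAG3, BAG4, BAG5, BAG6, HSPBP1, SIL1, GRPEL1 and GRPEL2, which are 10 of the 55401 gene names in the files, and all 10 were found. Transcript levels came from RNA sequencing of 6 libraries in 3 groups of 2, named A and B. RMS13 is a human cell line of alveolar rhabdomyosarcoma, a muscle-like tumour, and RMS13-R is its derivative with acquired resistance to MAL3-101, a small molecule that blocks the J-domain-stimulated ATPase activity of HSP70. The groups were parental RMS13 cells with DMSO, the solvent, parental RMS13 cells with 10 µM MAL3-101, and RMS13-R cells with 10 µM MAL3-101, each for 9 h. The titles of the DMSO libraries also carry the name of the drug, and their group was taken from their descriptions. An untreated RMS13-R group was not analysed here, and the line and its response to the drug cannot be told apart, and the labels do not say how many clones the resistant line holds.

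HSP70 works in cycles: a J-domain protein brings a client and speeds ATP hydrolysis, and an exchange factor ends the cycle by opening the nucleotide pocket. Each compartment has its own factors. BAG-domain proteins, HSPBP1 and the HSP110 chaperones serve HSP70 in the cytosol and nucleus, SIL1 and the HSP110 relative HYOU1 serve HSPA5 (BiP) in the endoplasmic reticulum, and the GrpE-like proteins GRPEL1 and GRPEL2 serve HSPA9 (mortalin) in mitochondria. BAG3 is the stress-inducible family member and is known in muscle for directing damaged filament proteins to autophagy.

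Promoters from RefSeq (GRCh38.p14) were searched for 8 of the 10 genes. BAG4 was left out of the search, and the promoter list had no entry for GRPEL1. The 250 bases before the start site are shown for BAG3 and GRPEL2, whose levels moved most, and for BAG2, whose level moved least in the drug comparison while its window holds a heat shock motif. Capitals mark motif matches. The windows are chr10:119651130-119651379 on the plus strand for BAG3, chr5:149345249-149345498 on the plus strand for GRPEL2 and chr6:57172076-57172325 on the plus strand for BAG2.
BAG3: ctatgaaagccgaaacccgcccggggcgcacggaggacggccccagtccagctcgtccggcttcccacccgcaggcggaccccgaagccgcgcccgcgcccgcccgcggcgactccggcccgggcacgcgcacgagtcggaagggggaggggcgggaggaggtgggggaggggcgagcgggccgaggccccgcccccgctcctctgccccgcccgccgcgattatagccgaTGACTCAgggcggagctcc
GRPEL2: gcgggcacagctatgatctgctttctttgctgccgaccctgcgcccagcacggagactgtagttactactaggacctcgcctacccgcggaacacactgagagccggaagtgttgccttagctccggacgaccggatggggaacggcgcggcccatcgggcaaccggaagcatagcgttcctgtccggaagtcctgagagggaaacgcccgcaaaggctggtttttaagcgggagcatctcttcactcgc
BAG2: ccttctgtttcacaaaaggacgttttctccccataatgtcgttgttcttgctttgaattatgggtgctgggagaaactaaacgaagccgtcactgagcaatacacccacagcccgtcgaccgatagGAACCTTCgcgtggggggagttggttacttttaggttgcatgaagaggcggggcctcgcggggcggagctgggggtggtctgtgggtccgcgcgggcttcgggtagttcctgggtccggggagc
Windows of 300 bases, which also take in 50 bases after the start, were searched on both strands for paired heat shock units (GAANNTTC or TTCNNGAA), for runs of 3 such units in alternating direction (which contain the paired forms), for the C/EBP-ATF composite (TGATGNAA), the endoplasmic reticulum stress element, the cyclic AMP response element (TGACGTCA) and, added after the BAG3 sequence had been read, the AP-1 site (TGACTCA). Paired heat shock units were present in 13.5% of 35116 promoters, and among the members in BAG2 (GAACCTTC, bases -124 to -117 from the start) and SIL1 (GAAACTTC, -231 to -224). BAG3 held the AP-1 letters at -19 to -13, as did 4.95% of all promoters. GRPEL2 held none of these letters in its window. Runs of 3 units occurred in 0.49%, the C/EBP-ATF composite in 3.62%, the stress element in 0.0769% and the cyclic AMP element in 1.85% of promoters, and in none of the members searched.

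The libraries carried the muscle markers of their label. Of 15 markers of skeletal muscle lineage, 12 reached 1 TPM in a group (transcript levels corrected for length and scaled to a sum of 1000000 per library), and MYOD1, the master factor of that lineage, lay between 484 and 816 TPM, while MYF5 was listed at 0 throughout. The 6 leukocyte markers summed to 0.980 to 2.30 TPM per library. Epithelial markers summed to 25.1 and 30.9 TPM with DMSO, 55.5 and 54.6 TPM in parental and 20.0 and 18.4 TPM in resistant MAL3-101 libraries, with KRT5 at 0 and 4 of 9 markers at 1 TPM or more. Mitochondrial ribosomal RNA made up 0.533% to 0.565%, 1.92% to 1.97% and 0.767% to 0.784% of TPM in the same order of groups. Both measures were highest where BAG3 was highest. OCLN made nearly all of the epithelial sum in resistant libraries, at 18.54 and 17.45 TPM, above its 12.46 and 13.94 TPM with DMSO. EPCAM, KRT8 and KRT18 were lower in resistant libraries than in any other. Fibroblast markers, 4 of 6 at 1 TPM or more, summed to 137 and 138 TPM in resistant libraries against 41.5 to 53.6 TPM in the other 4; COL3A1 made nearly all of that sum, at 134 and 135 TPM, while COL1A1, PDGFRA, THY1 and LUM were lower in resistant libraries than in any other. The muscle markers summed to 2618 and 2649 TPM there against 3751 to 4317 TPM, although MYOG and DES were higher in resistant libraries than in any other. Of 5 endothelial markers 4 were found and 1, TEK, reached 1 TPM, with sums of 19.3 and 21.2 TPM in resistant libraries and 1.70 to 2.93 TPM elsewhere. The part of these measures in the results was not tested. The DMSO pair spread most, with 171 of 15148 tested genes 2-fold apart against 67 and 40. The widest gap between replicates among the members was that of SIL1 in resistant cells, 0.47 on the log2(TPM + 1) scale. The labels do not state the origin of libraries A and B within a group, and p-values cover the spread between these libraries alone, which may be technical. Read depth cannot be had from TPM, and the counting error of a level is unknown.

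BAG3 stood at 31.3 and 37.3 TPM with DMSO, at 257.6 and 223 TPM in parental MAL3-101 libraries and at 24.6 and 23.6 TPM in resistant MAL3-101 libraries. The 3 groups did not overlap, with parental drug-treated cells far above both others and resistant cells lowest. The mean level was 7.01-fold higher with the drug in parental cells (240.4 ± 24.2 against 34.3 ± 4.24 TPM, SD, n = 2). Against parental cells with the same drug, resistant cells stood 9.97-fold lower (24.1 ± 0.714 TPM). Differences from here on are on the log2(TPM + 1) scale, which understates changes of low genes, and a gene is called where limma's Benjamini-Hochberg adjusted p, over all 15148 tested genes, is under 0.05. On this scale BAG3 rose by 2.78 with the drug in parental cells (SE 0.10, limma adjusted p = 5.78e-06), and resistant cells lay at -3.26 from parental drug-treated cells (SE 0.10, limma adjusted p = 1.65e-06) and at -0.49 from DMSO (SE 0.10, limma adjusted p = 0.0056). In bulk RNA, fewer cells with a transcript and less of it per cell cannot be told apart. By size of rise in parental cells BAG3 had rank 29 from the top of the tested genes, and by fall in resistant against parental drug-treated cells rank 36 from the bottom. Its calls in the 3 comparisons held in each of 15 alternative settings, including each library left out in turn.

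BAG1, which couples HSP70 to the proteasome through a ubiquitin-like domain and binds BCL2, stood at 68.2 and 73.8 TPM with DMSO, 84.2 and 82.8 TPM in parental and 64.8 and 62.2 TPM in resistant MAL3-101 libraries. The order was that of BAG3 on a small scale: parental drug-treated libraries highest, resistant ones lowest, no overlap. The rise with the drug in parental cells was 0.23 (SE 0.06, limma adjusted p = 0.0174), and the call was lost on leaving out parental MAL3-101 library A (adjusted p = 0.11) or library B (0.0831) and with upper-quartile scaling, where the difference itself was 0.09 (adjusted p = 0.359). The difference of resistant from parental cells, -0.39 (SE 0.06, limma adjusted p = 0.00114), held in all 15 alternatives. Against DMSO it was -0.16 (SE 0.06, limma adjusted p = 0.0565), which passed without DMSO library A (adjusted p = 0.00653).

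BAG2, an inhibitor of the HSP70-bound ubiquitin ligase CHIP, and BAG4, known as silencer of death domains for its binding to TNF receptor 1, stayed within narrow ranges. BAG2 lay between 9.03 and 10.7 TPM over all 6 libraries, with the parental groups overlapping. BAG4 lay between 6.11 and 7.61 TPM, lowest with DMSO and highest in resistant cells. Neither passed the test in any of the 3 comparisons, with 95% intervals for the drug effect in parental cells of -0.16 to 0.31 for BAG2 and -0.14 to 0.35 for BAG4. BAG4 in resistant cells against DMSO, 0.21, was called after median-ratio scaling (0.28, adjusted p = 0.0455).

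BAG5, which has several BAG domains in a row and binds the ubiquitin ligase parkin, stood at 36.6 and 33.9 TPM with DMSO, 30.0 and 30.4 TPM in parental and 28.7 and 28.6 TPM in resistant MAL3-101 libraries. Both drug-treated groups lay below DMSO. The fall in parental cells, -0.22 (SE 0.07, limma adjusted p = 0.0341), was near the threshold, and the call was lost on leaving out parental MAL3-101 library A (adjusted p = 0.159) or B (0.133), or resistant library A (0.0817) or B (0.0816). Resistant cells lay below DMSO by -0.29 (SE 0.07, limma adjusted p = 0.0086), which did not pass without resistant library A (0.0622) or B (0.0646). Between the drug-treated groups the 95% interval was -0.23 to 0.08.

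BAG6, a large scaffold that hands tail-anchored membrane proteins to the insertion machinery, had the highest level of the set with DMSO and in resistant cells. It stood at 164 and 189 TPM with DMSO, 144 and 149 TPM in parental and 165 and 168 TPM in resistant MAL3-101 libraries. Parental drug-treated libraries were lowest, and resistant libraries fell inside the range of DMSO. The fall in parental cells, -0.26 (SE 0.07, limma adjusted p = 0.0199), was not called on leaving out parental MAL3-101 library A (adjusted p = 0.122) or B (0.0775). Resistant cells had 0.18 (SE 0.07, limma adjusted p = 0.056) over parental drug-treated cells, which passed without DMSO library A (0.00172) or B (0.00174) and after median-ratio (0.29, adjusted p = 0.0185) and upper-quartile scaling (0.35, adjusted p = 0.0139). Without DMSO library A, BAG6 in resistant cells passed as lower than DMSO (-0.18, adjusted p = 0.00575).

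HSPBP1, an armadillo-repeat exchange factor that also restrains CHIP, had the pattern of BAG6: 63.1 and 77.1 TPM with DMSO, 57.7 and 60.9 TPM in parental and 70.5 and 69.9 TPM in resistant MAL3-101 libraries. Its DMSO libraries were the farthest apart of the members in that group on the log2 scale (0.28) and enclosed the resistant pair. None of its 3 differences passed: -0.23 (SE 0.09, limma adjusted p = 0.0813) for the drug in parental cells, 0.24 (SE 0.09, limma adjusted p = 0.0581) for resistant over parental drug-treated cells and 0.01 for resistant cells over DMSO. The first passed without DMSO library A (adjusted p = 0.000957) and after upper-quartile scaling (-0.37, adjusted p = 0.0364), the second without DMSO library A (0.00161) or B (0.00167) and after both scalings (differences of 0.35 and 0.41), and the last without DMSO library B (0.15, adjusted p = 0.0376).

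**Figure D1:**
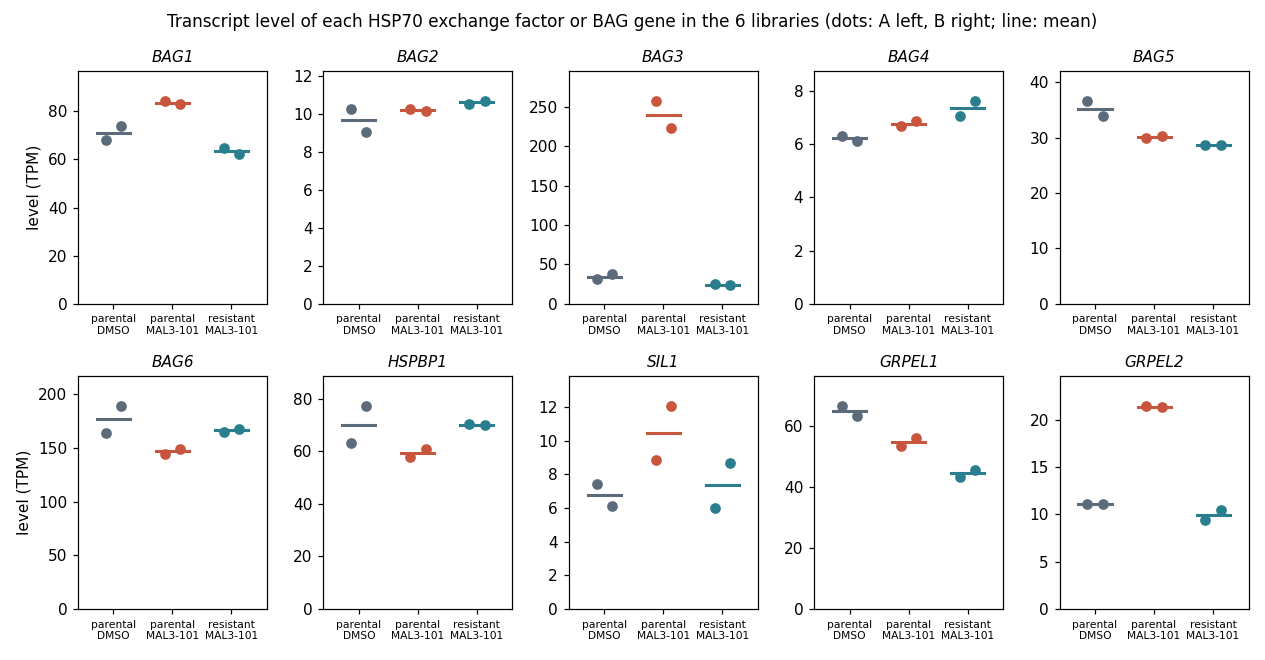
Level in TPM (vertical axis, from 0, a separate scale for each gene) of the 10 genes in the 3 groups; dots are libraries A and B and lines are means of 2. BAG3 and GRPEL2 are high in parental MAL3-101 libraries alone, GRPEL1 steps down from 65.0 to 54.8 to 44.5 TPM, and the SIL1 replicates spread widely.

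SIL1, the exchange factor of BiP, was among the lowest of the set, at 7.45 and 6.11 TPM with DMSO, 8.83 and 12.0 TPM in parental and 6.02 and 8.69 TPM in resistant MAL3-101 libraries. Parental drug-treated libraries were above the rest, though resistant library B nearly reached the lower of them. The difference of 0.55 (SE 0.20, limma adjusted p = 0.0648) in parental cells did not pass, nor did -0.46 (SE 0.20, limma adjusted p = 0.089) between resistant and parental drug-treated cells; the 95% interval of the first ran from 0.08 to 1.02. Without DMSO library A the first passed (0.67, adjusted p = 0.0453).

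GRPEL1 and GRPEL2, the pair that serve mortalin, went in opposite directions with the drug. GRPEL2 stood at 11.1 and 11.1 TPM with DMSO, 21.4 and 21.3 TPM in parental and 9.39 and 10.5 TPM in resistant MAL3-101 libraries. Only the parental drug-treated pair was raised, and the resistant pair lay just below DMSO. The rise was 0.89 (SE 0.09, limma adjusted p = 0.000465) and the difference of resistant from parental drug-treated cells was -1.04 (SE 0.09, limma adjusted p = 8.73e-05). Both held in all 15 alternatives. Against DMSO, resistant cells had -0.15 (SE 0.09, limma adjusted p = 0.197).

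GRPEL1, the other of the pair, stood at 66.5 and 63.4 TPM with DMSO, 53.6 and 56.1 TPM in parental and 43.5 and 45.6 TPM in resistant MAL3-101 libraries. The groups were stepped and did not overlap. It fell by 0.24 in parental cells with the drug (SE 0.06, limma adjusted p = 0.0158), a call lost on leaving out parental MAL3-101 library A (0.118) or B (0.0588). Resistant cells lay a further -0.29 (SE 0.06, limma adjusted p = 0.00437) below parental drug-treated cells, a call lost with upper-quartile scaling (-0.12, adjusted p = 0.0982), and -0.53 (SE 0.06, limma adjusted p = 0.000331) below DMSO, a call kept in every alternative. The ratio of GRPEL1 to GRPEL2 transcripts was 5.97 and 5.73 with DMSO, 2.50 and 2.63 in parental and 4.63 and 4.35 in resistant MAL3-101 libraries.

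Counted over the set, the drug in parental cells raised 3 members and lowered 3, while 4 did not pass. Of all tested genes 40.8% were called in this comparison, 22.6% higher and 18.2% lower. Resistant against parental drug-treated cells gave 0 higher and 4 lower members, against 21.3% and 34.8% of all genes, and resistant cells against DMSO gave 0 higher and 3 lower, against 20.9% and 29.7%. In either direction these were 40% and 30% of members, beside 56.1% and 50.6% of all genes. The count in the second comparison became 2 higher and 4 lower without DMSO library A or B, with the 4 libraries compared alone or with median-ratio scaling, and 2 higher and 3 lower with upper-quartile scaling. The third became 0 higher and 5 lower without DMSO library A, 1 higher and 3 lower without DMSO library B or with median-ratio scaling, and 0 higher and 2 lower without resistant library A or B. At an unadjusted p under 0.05 in the same limma fit, 2 members (BAG6 and HSPBP1) were higher in the second comparison and 0 in the third. The 2 groups compared did not overlap for 9, 10 and 7 members in the 3 comparisons, where 69.8%, 83.4% and 75.8% of all genes did not. The median log2 fold change of the members was 0.09, -0.18 and -0.11, beside 0.02, -0.10 and -0.06 over all tested genes. Without parental MAL3-101 library A or B only 2 members, BAG3 and GRPEL2, were called in the first comparison. The comparisons share libraries, so their values stand side by side and are not independent. Upper-quartile scaling moved the median of all genes from 0.02 to -0.10 in the first comparison and from -0.10 to 0.05 in the second. In the second, 3228 genes were higher and 5267 lower as deposited, 4224 and 4362 with median-ratio factors, and 4748 and 3822 with upper-quartile factors. In the first, upper-quartile scaling gave 2375 higher and 4315 lower beside 3429 and 2752, and in the third median-ratio scaling gave 4058 higher and 3765 lower beside 3160 and 4502.

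**Figure D2:**
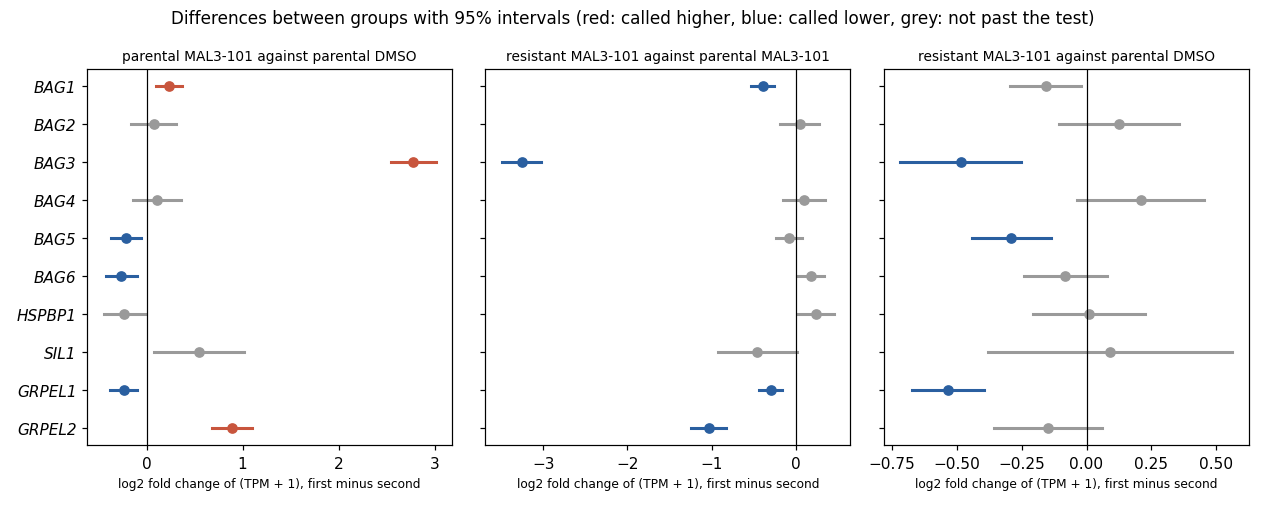
Log2 fold change of (TPM + 1) for each gene in the 3 comparisons (horizontal axes differ in range), dots with 95% intervals from the limma fit, red for called higher, blue for called lower and grey for not past the test. BAG3 lies at 2.78 and -3.26 in the first 2 panels, and GRPEL2 at 0.89 and -1.04, while no other gene reaches 1 in size.

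Because TPM is scaled by transcript length, levels can be set side by side between genes. With DMSO, BAG6 led at 176 TPM, followed by BAG1 (71.0), HSPBP1 (70.1) and GRPEL1 (65.0). The HSPBP1 libraries enclosed those of BAG1 and those of GRPEL1, which did not overlap each other. BAG5 (35.3) and BAG3 (34.3), which overlapped, came next. GRPEL2 (11.1), BAG2 (9.65), SIL1 (6.78) and BAG4 (6.21) followed, of which the last pair overlapped. In parental cells with the drug BAG3 led at 240.4 TPM, ahead of BAG6 at 147. In resistant cells BAG6 led again at 166 TPM and BAG3 stood below BAG5.

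The make-up of the BAG family differed most in its BAG3 share. BAG1 to BAG6 summed to 317 and 349 TPM with DMSO, 533 and 502 TPM in parental and 301 and 300.2 TPM in resistant MAL3-101 libraries. BAG3 held 9.87% and 10.7% of that sum with DMSO, 48.3% and 44.4% in parental and 8.19% and 7.86% in resistant drug-treated cells. The share of BAG6 went from 51.8% and 54.1% to 27.1% and 29.7%, and stood at 54.9% and 55.8% in resistant cells. These sums and shares, and the ratios of TPM values that follow, are given as values and were not tested.

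**Figure D3:**
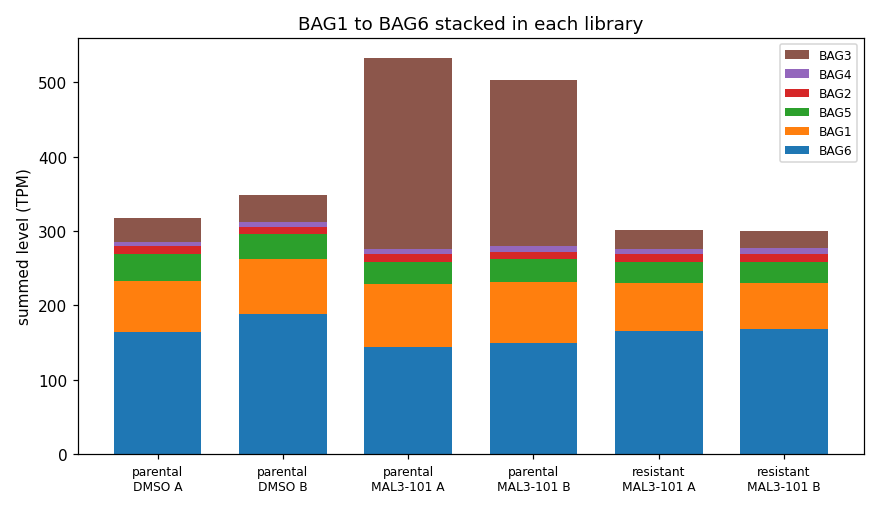
Levels of BAG1 to BAG6 in TPM, stacked for each of the 6 libraries. The BAG3 segment makes up 48.3% and 44.4% of the bar in parental MAL3-101 libraries and 7.86% to 10.7% in the other 4.

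HSP110 chaperones are the other exchange factors of HSP70. With the drug in parental cells 3 of 4 rose and HSPA4 did not pass, with a median of 1.47. HSPH1, the stress-inducible HSP110, rose by 1.47 (SE 0.07) from 254 and 275 to 778 and 692 TPM. HYOU1, its relative in the endoplasmic reticulum, rose by 1.57 (SE 0.05) from 93.8 and 97.1 to 289 and 281 TPM, and HSPA4L by 1.48 (SE 0.25). In resistant against parental drug-treated cells 4 of 4 were lower, HSPH1 by -2.40 (SE 0.07), with a median of -1.21. HSPH1 at 141 and 135 TPM and HSPA4 at 67.6 and 67.2 TPM in resistant cells also lay below DMSO, by -0.93 (SE 0.07) and -0.79 (SE 0.05), while HYOU1 lay above, by 0.58 (SE 0.05).

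The HSP70 chaperones themselves numbered 12, of which 10 were tested: 6 rose, 1 fell and 3 did not pass with the drug in parental cells, and 1 was higher, 6 lower and 3 not past between resistant and parental drug-treated cells, where 2 were higher without DMSO library A or B. The strictly stress-inducible HSPA6 rose by 6.85 (SE 0.17), and HSPA8, the constitutive HSP70 of the cytosol, fell by 0.75 (SE 0.09). The higher gene in resistant than in parental drug-treated cells was HSPA12A, a distant relative, at 3.31 (SE 0.19). It stood at 0.89 and 0.45 TPM with DMSO, 0.42 and 0.80 TPM in parental and 15.2 and 14.4 TPM in resistant drug-treated libraries. It was thus tested only through its level in the resistant group. Against DMSO, 6 were higher in resistant cells, 2 lower and 2 not past (median 0.29), with HSPA6 at 2.13 (SE 0.17). HSPA1A and HSPA1B, near-identical copies between which reads cannot be divided with confidence, summed to 138 and 135 TPM with DMSO, 2691 and 2212 TPM in parental and 200.4 and 196 TPM in resistant drug-treated libraries. Per BAG3 transcript this was 4.41 and 3.61 with DMSO, 10.4 and 9.90 in parental and 8.14 and 8.32 in resistant drug-treated cells. By this ratio resistant libraries lay near the parental drug-treated ones, although all 3 genes were far lower there. Against DMSO, BAG3 was lower in resistant cells, while HSPA1A (0.53, SE 0.12) and HSPA1B (0.54, SE 0.08) were higher. Over the cytosol as a whole, HSPA1A, HSPA1B, HSPA2, HSPA6 and HSPA8 together numbered 3.37 and 3.78 transcripts per transcript of BAG1 to BAG5, HSPBP1, HSPH1, HSPA4 and HSPA4L with DMSO, 3.12 and 2.94 in parental and 3.69 and 3.62 in resistant drug-treated libraries. That ratio was lower in both parental drug-treated libraries than in any other library. Its range was narrow beside that of the summed exchange factors. The sum went from 596 and 632 TPM with DMSO to 1371 and 1242 TPM in parental drug-treated cells, and stood at 421 and 411 TPM in resistant cells.

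In the endoplasmic reticulum and in mitochondria the transcripts of the chaperone outnumbered those of SIL1, HYOU1 and GRPEL1 most in parental drug-treated cells. HSPA5 transcripts per SIL1 transcript numbered 87.6 and 102 with DMSO, 329 and 231 in parental and 124 and 86.7 in resistant drug-treated libraries. Per HYOU1 transcript they numbered 6.96 and 6.43, 10.1 and 9.88, and 5.09 and 5.36. HSPA9 rose by 0.63 (SE 0.05) in parental cells and was lower by -1.32 (SE 0.05) in resistant cells than there, and its ratio to GRPEL1 was 4.46 and 4.94, 9.01 and 8.28, and 4.33 and 4.18. Each of these ratios was higher in both parental drug-treated libraries than in the other 4.

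**Figure D4:**
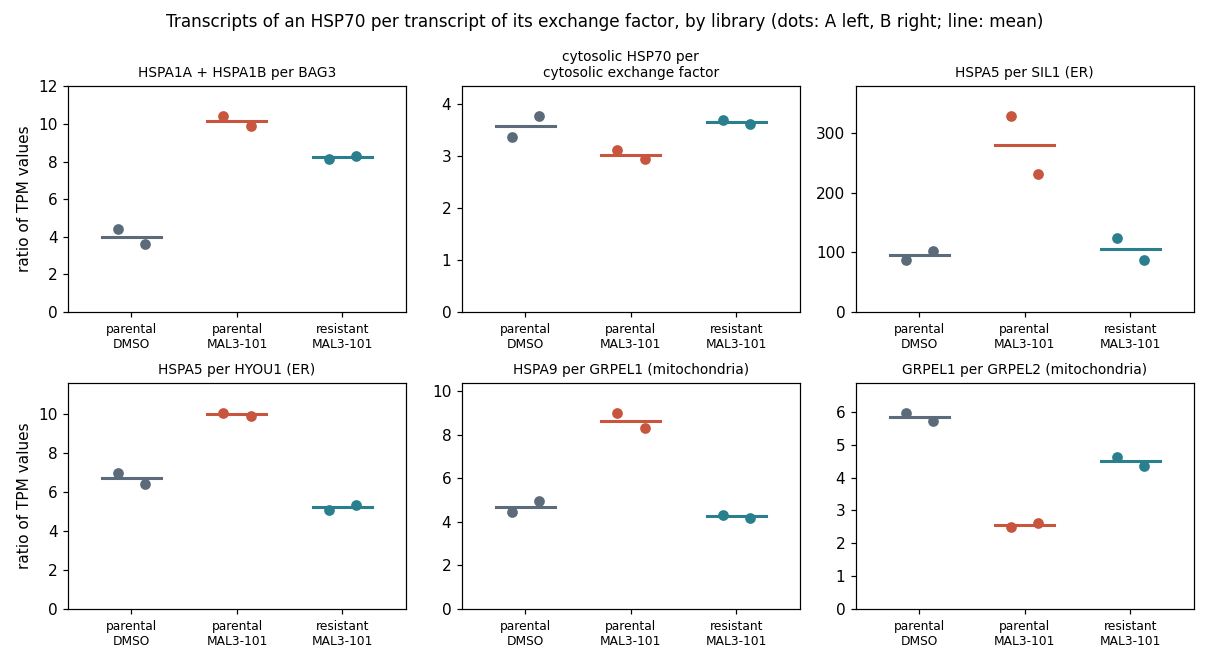
Ratio of TPM values (vertical axes from 0) of HSP70 chaperones to exchange factors, and of GRPEL1 to GRPEL2, in each library, with means of 2 as lines. HSPA9 per GRPEL1 goes from 4.46 and 4.94 with DMSO to 9.01 and 8.28 in parental MAL3-101 libraries. The cytosolic ratio is 3.12 and 2.94 in parental MAL3-101 libraries and 3.37 to 3.78 elsewhere.

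Partner genes were taken from lists, some of which share genes (STUB1, HSPA9, HSPH1, HYOU1, HSPA5, HSPA1A, HSPA1B and HSPA6 stand in more than 1). Beside the list counts, 22.6% of all tested genes rose and 18.2% fell with the drug in parental cells. Between resistant and parental drug-treated cells 21.3% were higher and 34.8% lower, and against DMSO 20.9% and 29.7%. Among 11 partners of SIL1 in the endoplasmic reticulum, 10 rose and 1 fell with the drug in parental cells (median 0.96), and 1 was higher and 8 lower in resistant than in parental drug-treated cells (median -0.93). SDF2L1, a stress-induced cofactor of BiP, rose by 2.38 (SE 0.05), the J-domain protein DNAJB9 by 2.34 (SE 0.07), and BiP itself by 2.15 (SE 0.05). SDF2, the 1 gene that fell (-0.31), was not called without parental MAL3-101 library B. The 1 higher gene, DNAJC25 at 0.19, was not called without any 1 of the 4 drug-treated libraries. Against DMSO, 6 of the 11 partners of SIL1 were higher in resistant cells, 2 lower and 3 not past (median 0.23). Of 13 partners of the GrpE-like proteins in the mitochondrial import motor, 3 rose, 2 fell and 8 did not pass with the drug in parental cells (median 0.03). TIMM44, which tethers mortalin to the import channel, rose by 0.88 (SE 0.05), close to GRPEL2, and HSCB, a J-domain protein of iron-sulphur cluster assembly, by 0.46 (SE 0.09), a call lost without parental MAL3-101 library A. Both falls, those of TIMM50 and TIMM21, were lost without parental MAL3-101 library A or B, and that of TIMM21 also without resistant library A or B. Between resistant and parental drug-treated cells 1 was higher, 5 lower and 7 not past (median -0.19), HSPA9 and the J-domain protein DNAJA3 (-0.80, SE 0.06) at the low end. The higher gene, TIMM17B at 0.19, was lost without any 1 of the same 4 libraries, and 4 genes were called higher after either scaling.

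BAG3 works with the small heat shock protein HSPB8 and other factors in chaperone-assisted selective autophagy, which clears damaged filamin in muscle. Of 13 partners 2 rose and 3 fell with the drug in parental cells, while 8 did not pass (median -0.05), beside 22.6% and 18.2% of all tested genes. DNAJB6, a J-domain protein mutated in muscular dystrophy, rose by 0.65 (SE 0.05). HSPB8 had 0.52 (SE 0.17, limma adjusted p = 0.0497), from 17.3 and 26.2 to 32.5 and 29.5 TPM, and missed the threshold in 11 of 15 alternatives. Its adjusted p was 0.0779 when DMSO library A was left out, 0.218 and 0.124 for parental MAL3-101 libraries A and B, and 0.0838 and 0.0842 for resistant libraries A and B. Without DMSO library B, 4 of the 13 were called higher. SYNPO2, which links BAG3 to autophagosome formation, fell from 12.3 and 12.7 to 5.95 and 5.27 TPM, by 1.03 (SE 0.09). In resistant against parental drug-treated cells 3 were higher and 9 lower (median -0.75), and against DMSO 2 were higher and 9 lower (median -0.84), the 2 becoming 1 without DMSO library B or resistant library A or B. HSPB8 stood at 5.12 and 5.59 TPM in resistant cells, -2.33 (SE 0.17) below parental drug-treated cells and -1.81 (SE 0.17) below DMSO. HSPB2, another small heat shock protein of muscle, lay -1.72 (SE 0.12) below parental drug-treated cells. The autophagy receptor SQSTM1, at 65.6 and 68.2 TPM, lay -1.16 (SE 0.08) and -1.07 (SE 0.08) below these groups. SYNPO2 had the largest of the higher values, 22.6 and 23.6 TPM, 1.87 (SE 0.09) above parental drug-treated cells and 0.83 (SE 0.09) above DMSO. VPS18 (0.69, SE 0.08) and VPS16 (0.31, SE 0.10), subunits of the tethering complex for lysosomal fusion, were the others higher than in parental drug-treated cells, and the syntaxin STX7 (0.43, SE 0.12) was the other higher than with DMSO.

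The BAG6 complex and the insertion factors it feeds gave 3 higher, 3 lower and 2 not past among 8 genes with the drug (median -0.08). UBL4A, a subunit of the complex, had -0.56 (SE 0.08) and the tail-anchored protein ATPase ASNA1 -0.38 (SE 0.06), beside BAG6 at -0.26. The 3 higher genes went against BAG6: RNF126 at 0.35 (SE 0.06), GET4 at 0.31 (SE 0.10) and CAMLG at 0.24 (SE 0.08). Without parental MAL3-101 library A or B, without resistant library A or B, or without DMSO library B, 1 was called higher. Resistant against parental drug-treated cells gave 3 higher, 3 lower and 2 not past (median 0.02), CAMLG, the membrane receptor of the pathway, lowest at -1.01 (SE 0.08); without parental MAL3-101 library B, or without resistant library A or B, 1 was higher and 1 lower. Of 7 binding partners of BAG1, BAG4 and BAG5, 6 were tested, and 1 rose, 1 fell and 4 did not pass with the drug (median -0.08). PARK7, a protein of the parkin pathway, fell by 0.39 (SE 0.04), and the glucocorticoid receptor NR3C1 rose by 0.38 (SE 0.09), a call lost on leaving out parental MAL3-101 library A. Without DMSO library A, 2 were higher and 3 lower. In resistant against parental drug-treated cells 0 were higher and 3 lower, of which 1 stayed lower when any 1 of the 4 drug-treated libraries was left out; without DMSO library A or B, 1 was higher. At an unadjusted p under 0.05, 1 (TNFRSF1A) was higher. The cofactors ST13, STIP1 and STUB1 (CHIP) gave 0 calls with the drug in parental cells by limma's test and 0 at an unadjusted p under 0.05, with 1 (ST13) called lower without DMSO library B, and 2 of 3 were lower in resistant than in parental drug-treated cells, STUB1 by -0.72 (SE 0.06) and STIP1 by -0.58 (SE 0.05). Heat shock factors and their classical targets gave 10 higher, 0 lower and 2 not past among 12 with the drug (median 1.08) and 0 higher, 9 lower and 3 not past between resistant and parental drug-treated cells (median -1.54), with 0 more in the empty directions at an unadjusted p under 0.05 by limma. HSPA6 moved most in this list too, and DNAJB1, the J-domain partner of inducible HSP70, rose by 2.73 (SE 0.07). HSF1 itself was among those not past, at 0.12 (SE 0.07) and 0.01 (SE 0.07). Over this list, resistant cells against DMSO gave 4 higher, 4 lower and 4 not past (median 0.12), with 7 higher after median-ratio scaling.

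**Figure D5:**
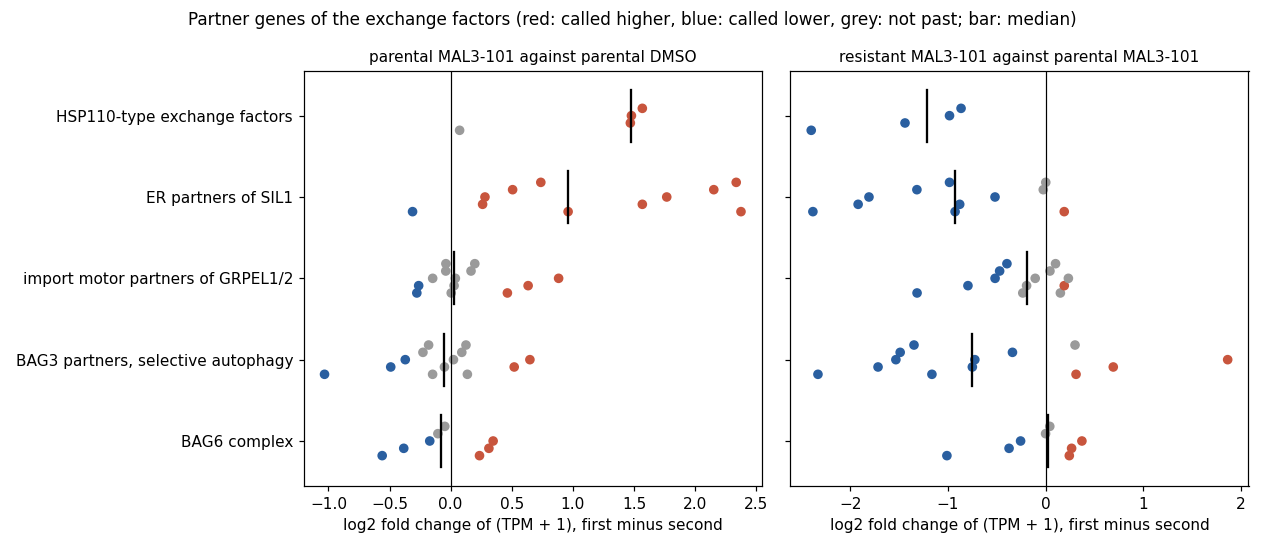
Log2 fold change of (TPM + 1) of each tested partner gene (dots, red for called higher, blue for called lower, grey for not past; vertical offsets only separate them) for 5 lists in 2 comparisons, with the list median as a bar. Partners of SIL1 lie mostly at the right in the first panel (median 0.96), while those of BAG3 and BAG6 lie around 0 (medians -0.05 and -0.08).

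Of all 11506 other genes whose highest group mean was 5 TPM or more, those with the profile over the 6 libraries most like that of BAG3, by the root mean square difference of centred log2(TPM + 1), were MAFF, a small MAF transcription factor (0.11), ZFAND2A, an arsenite-inducible zinc finger gene (0.18), and SH3BGR (0.19). MAFF stood at 4.09 and 5.72 TPM with DMSO, 37.9 and 32.8 TPM in parental and 3.44 and 3.52 TPM in resistant drug-treated libraries. The nearest to GRPEL2 were RAB5A, an early endosome GTPase (0.04), NFXL1 (0.04) and STK40 (0.05), RAB5A with 16.1 and 16.4, 30.6 and 31.1, and 14.4 and 16.3 TPM.

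SIL1 and HSPBP1 lie among genes that were mostly lower in resistant than in parental drug-treated cells, a pattern looked at after the values were seen. Of the 20 tested genes nearest to SIL1 on chromosome 5, by order on GRCh38.p14, 18 were lower and 1 higher in resistant than in parental drug-treated cells (median -0.89), and 17 were lower and 0 higher against DMSO (median -0.64), where SIL1 itself had 0.09 with a 95% interval from -0.38 to 0.56. Of the 20 around HSPBP1 on chromosome 19, 16 were lower and 2 higher in resistant than in parental drug-treated cells (median -0.83), where HSPBP1 had 0.24. Against DMSO 11 were lower and 2 higher (median -0.30), and 10 of these 20 rose and 1 fell with the drug in parental cells (median 0.40). Around BAG3 on chromosome 10, 13 of 20 were lower and 1 higher in resistant than in parental drug-treated cells (median -0.38). Against DMSO 12 of these were lower and 2 higher (median -0.35), where BAG3 itself had -0.49. Of all tested genes 34.8% were lower in that comparison (median -0.10), and 29.7% were lower in resistant cells than with DMSO (median -0.06). With the drug in parental cells 22.6% of all tested genes rose and 18.2% fell (median 0.02). Of genes that overlap members, RAB23 at BAG2 lay between 12.5 and 15.5 TPM, and APOM at BAG6 between 1.61 and 3.48 TPM, while the antisense gene GRPEL2-AS1 at GRPEL2 was not analysed here. Without a stated strand setting, reads from overlapping genes cannot be told apart.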

How the data were processed

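RNA-seq of 6 libraries was used, 2 in each of 3 groups, grouped by the labels. The deposited values are TPM per gene name, 1 column per library, each summing to 1000000. Per the submitters' processing notes RSEM and DESeq were used with hg19; the sources used here give no versions, aligner, annotation or strand setting. TPM keeps no depth, so no count model and no counting interval could be used.

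Genes whose mean reached 1 TPM in at least 1 group (15148 of 55401) were tested with limma 3.58.1 in R 4.3.3 (group means over all 6 libraries, eBayes with trend) on log2(TPM + 1), with Benjamini-Hochberg adjustment over all tested genes and a threshold of 0.05. The fit had 3 residual and 4.17 prior degrees of freedom. The script was tested on simulated data. The members and gene lists were chosen with earlier results of these data known. The text names every member, up to 3 called genes of largest change per list and comparison, and single partners a result turns on; other listed genes, such as SQSTM1, HSF1, SDF2 and TIMM50, were picked after their values were seen. The 3 genes nearest in profile were given for members that spanned 1 or more in log2 between groups. Alternatives covered 2 pseudocounts, 2 filters, the 4 libraries compared alone, 2 scalings, a replicate block, no trend and each library left out. Upper-quartile factors were computed over genes above 0 in any library. Alternatives for the partner lists were added after seeing the data. Promoters came from RefSeq (GRCh38.p14), a newer build than the files'; BAG4 is not shown and GRPEL1 is named only.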

Additional observations from a re-analysis of the deposited data

How the results depend on the processing

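Of 450 member values under 15 alternatives, 411 kept their call, 19 gained it, 20 lost it and 0 reversed a call. Of 30 member differences, 16 kept their call in every alternative, 7 of them called: BAG3 in all 3 comparisons, GRPEL2 in the first 2, BAG1 in resistant against parental drug-treated cells and GRPEL1 in resistant cells against DMSO. With the drug in parental cells, 6 members were called, 3 with no mean-variance trend, and 2 to 8 when 1 library was left out (2 without parental MAL3-101 library A or B). Genes called there numbered 6181, and 3169 to 7684 with 1 library left out, the lowest without parental MAL3-101 library A. For resistant cells against DMSO, 3 members and 7662 genes were called, against 2 to 5 members and 5001 to 8640 genes with 1 library left out, the lowest gene counts without a resistant library and 5 members without DMSO library A. A library left alone in its group is assumed to vary like the others. Partner genes that changed direction were ST13 (0.17), PARK7 (0.024) and HSPE1 (0.15) in resistant against parental drug-treated cells with upper-quartile scaling, and HSPA4L in resistant cells against DMSO (0.04; -0.40 without DMSO library B and 0.48 without library A, both called); the cause was not tested. Deviations of library A from its group mean were nearly uncorrelated between groups (0.03, -0.02 and -0.02). With 1 such deviation per gene and group, this cannot show whether the letters A and B pair the libraries. With the letter as a replicate block, 5942, 8381 and 7492 genes and 6, 6 and 3 members were called, BAG6 (adjusted p = 0.0384) and HSPBP1 (adjusted p = 0.0412) joining in the second comparison. With 2 libraries a group and no known depth, small differences of low genes such as SIL1 were not resolved.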
